A study of Mus musculus with 132 samples.

Results

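The TEAD transcription factors and the Hippo signalling genes that govern them were followed through single cells of mouse embryos before implantation. The set held 10 genes, taken by symbol from the 32245 genes of the count table: the TEAD genes Tead1, Tead2, Tead3 and Tead4, the co-activators Yap1 and Wwtr1 (also called Taz), the kinases Lats1 and Lats2, the angiomotin family member Amotl2, and Nf2, which encodes Merlin. All 10 symbols were found, each as 1 row.

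The embryos came from C57BL/6 x DBA F1 parents and were flushed at the 2-cell stage. They were cultured from then on with a mimic of the microRNA miR-381-3p or with a scrambled control mimic at the same concentration, and 3 to 5 embryos per treatment and stage were dissociated at the 8-cell stage (E2.5) or the 32-cell stage (E3.5). Each picked cell gave 1 Smart-seq2 library, a full-length method without molecular identifiers. The groups were 8-cell control (30 cells), 8-cell mimic (24 cells), 32-cell control (39 cells) and 32-cell mimic (39 cells). The mimic was used at 5 or 10 µM; the labels give no dose per cell, while the study's text pairs 10 µM with the 8-cell and 5 µM with the 32-cell stage, so stage and dose go together in the mimic cells. The labels do not say which embryo a cell came from, so each group counted as 1 sample, its cells are not replicates, and no test or p-value is given for any difference between groups.

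Levels are CPM (a gene's counts scaled to a common total) of the summed counts of a group, with mitochondrially encoded genes left out, and the 95% Poisson intervals beside them cover counting error only. Libraries held 544866 to 3461022 counts and 3243 to 8983 genes with a count. A change is the difference of log2(CPM + 1) between pooled groups, which understates the change of low genes. Genes were called different at 2-fold or more (a change of at least 1) where the mean of both groups was at least 10 CPM. Cells of the 32-cell control all had more Y-linked than Xist counts and cells of the 32-cell mimic all had more Xist, so treatment and this difference cannot be told apart at that stage; at the 8-cell stage both kinds were present in both groups. Cells are numbered in their titles, and stretches of numbers within a group, with a few numbers missing, are called runs, 2 in the 32-cell control, 3 in the 32-cell mimic, 2 in the 8-cell control and 1 in the 8-cell mimic. Runs were cut at group changes and at long gaps in the numbers, so each holds 1 treatment by construction; the numbering itself goes on from mimic to control to mimic over the last 3 runs of the 32-cell stage, and from the 8-cell mimic to the last 2 cells of the 8-cell control. Titles also end in the letter a for all 8-cell and b for all 32-cell cells, so stage and this letter go together. The labels do not say what the numbers or the letters stand for. Of the 8-cell control, cells 87 and 88 form a run of their own; the trophectoderm regulator Cdx2 was at 99.3 CPM in these 2 cells and at 2.80 CPM in the other 28. The 6 cumulus or granulosa cell markers summed to less than 0.658 CPM in every pooled group, with 4 or 5 of them without a count. The 4 oocyte or polar body markers summed to 77.9 and 38.6 CPM in the 8-cell control and mimic and to 0.404 and 2.55 CPM in the 32-cell groups. Summed TE markers were at 286.6 and 374.3 CPM at the earlier stage and at 4403 and 4408 CPM at the later one, control before mimic, and the summed ICM markers were between 1172 and 2145 CPM in the 4 groups.

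In the Hippo pathway, LATS kinases phosphorylate YAP and TAZ, the products of Yap1 and Wwtr1, and keep them out of the nucleus. Unphosphorylated YAP and TAZ enter the nucleus and bind TEAD proteins, which contact DNA but need a co-activator to switch genes on. In the mouse blastocyst the outer cells, which become trophectoderm (TE), have nuclear YAP, and TEAD4 with YAP supports Cdx2 and Gata3 there; in inner cells, the future inner cell mass (ICM), angiomotins and Merlin activate LATS, YAP stays in the cytoplasm and Sox2 is on.

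The mimic carries the mature sequence of miR-381-3p, shown because its seed decides which messages it can pair with; the mouse precursor lies on chromosome 12 and the mature arm at chr12:109726870-109726891 on the plus strand of GRCm38. The RefSeq sequence is given with the seed, bases 2 to 8, in capitals.
miR-381-3p: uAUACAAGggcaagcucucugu
Complements of this seed were sought on the sense strand of each gene's longest 3′ UTR in the GENCODE M21 annotation. The full site is CTTGTATA (8mer), and the shorter sites are CTTGTAT (7mer-m8) and TTGTATA (7mer-A1); a match counted as an 8mer was not counted again as a shorter site. None of the 10 genes held an 8mer, which 3.11% of the 20772 genes with a 3′ UTR did. Tead1, with the longest 3′ UTR of the set (8147 bases), held 3 shorter sites, and Wwtr1, Amotl2 and Lats1 held 1 each. Tead2, Tead3, Tead4, Yap1, Lats2 and Nf2 held none. A site of any kind was thus held by 40% of the 10 genes, beside 21.6% of all genes with a 3′ UTR. The median 3′ UTR was 2438 bases long in the set and 1091 bases over all genes. The windows of 29 bases around the sites, with the site in capitals, are as follows.
Tead1, 7mer-A1, chr7:112903544-112903572: gtacctgtaatTTGTATAattttgtatat
Tead1, 7mer-A1, chr7:112903554-112903582: tttgtataattTTGTATAtgctctggcgt
Tead1, 7mer-m8, chr7:112904328-112904356: ccaaccgcaggCTTGTATtcatgagagca
Wwtr1, 7mer-A1, chr3:57458431-57458459 (minus strand): aaaaaaaatcaTTGTATAgatagtaattt
Amotl2, 7mer-A1, chr9:102732255-102732283: agcagtgtgttTTGTATAtaattcttttt
Lats1, 7mer-A1, chr10:7713295-7713323: cctggtatcttTTGTATAtatgataaata

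The first 2 Tead1 windows overlap, with sites starting 4895 and 4905 bases after the stop codon. Tead1 held 0.368 sites per 1000 bases of 3′ UTR against 0.188 over all genes. Of the genes with a 3′ UTR at least as long as that of Tead1, 38.5% held 3 or more sites, so a count of 3 was common at this length. A match is a description of the sequence and not evidence that the site was used.

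Per 1000 bases of exon, Tead4 was the most abundant of the 10 genes in every group and Wwtr1 came next. At the 8-cell stage Tead4 stood apart: its lower quartile over control cells, 127.5 CPM per kb, lay above the upper quartile of Wwtr1, 27.4 CPM per kb, and in mimic cells the values were 106.1 and 32.0 CPM per kb. In 8-cell mimic cells Nf2 and Lats1, and Tead1 and Tead3, also had interquartile ranges apart, the lower gene of each pair having an upper quartile of 0. All other neighbours in the order overlapped at the 8-cell stage, and all did at the 32-cell stage, Tead4 and Wwtr1 included. Tead1, Tead2 and Tead3 filled the last 3 places at the 8-cell stage in both treatments. In the 32-cell control Lats1 ranked ninth, below Tead1 and Tead2, and Tead3 was last in both 32-cell groups. With the longest transcript in place of the exon union as length, Yap1 took the place after Tead4 in each group. A cell had counts for a median of 7 of the 10 genes at the 8-cell stage and 6 at the 32-cell stage.

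**Figure D1:**
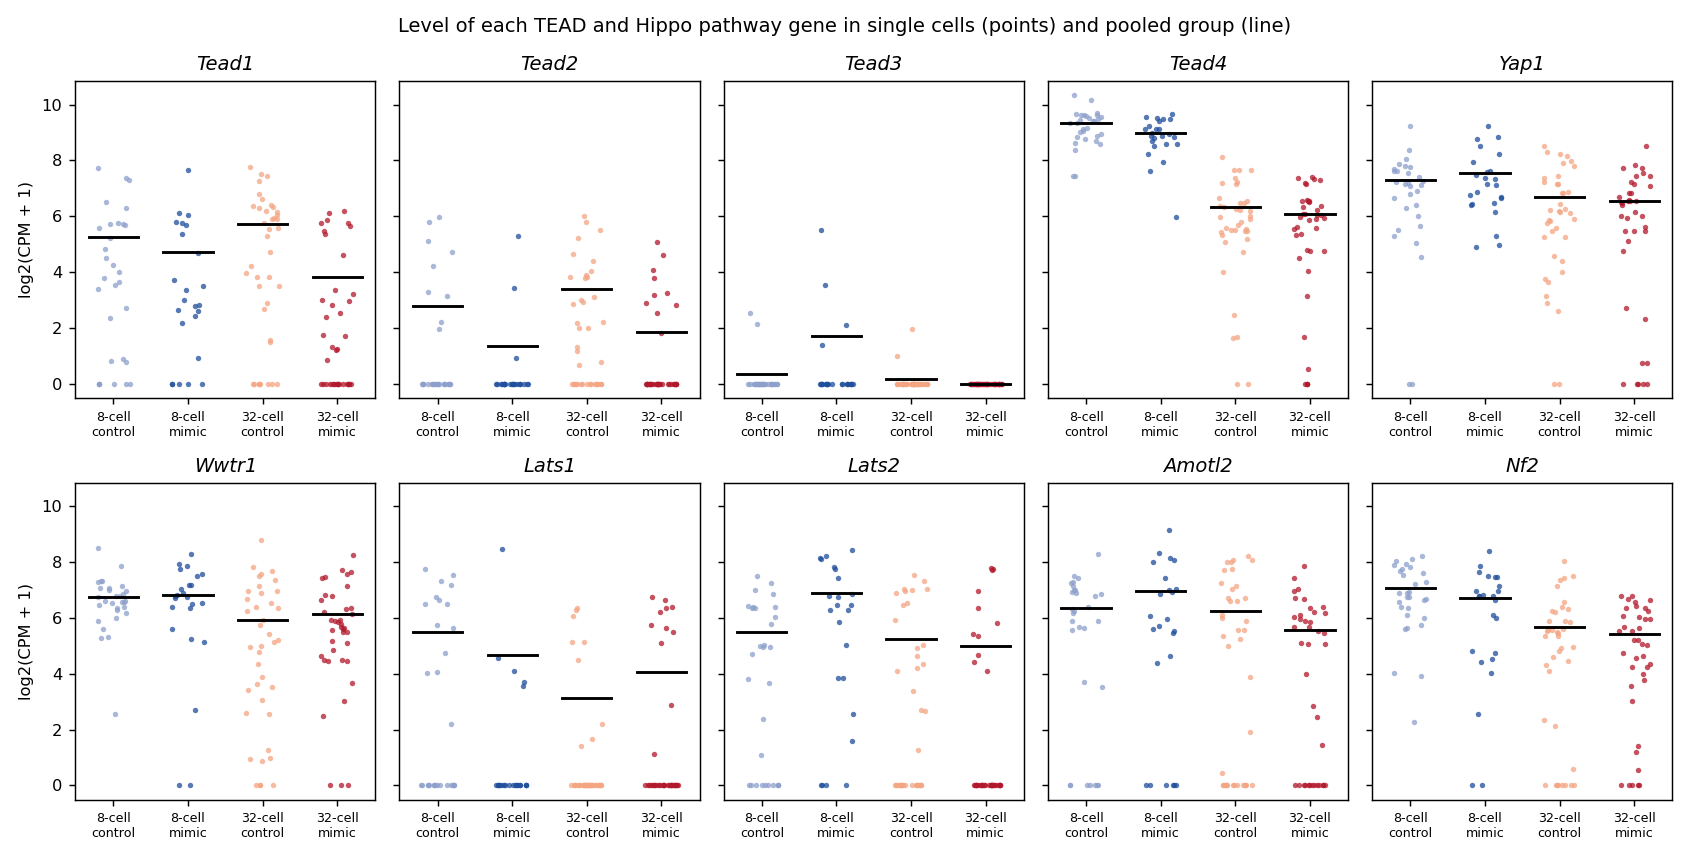
Each point is 1 cell, on a scale of log2(CPM + 1), for the 10 genes in the 8-cell control (n = 30), 8-cell mimic (n = 24), 32-cell control (n = 39) and 32-cell mimic (n = 39); black lines are the pooled CPM of the group on the same scale. Tead4 drops between the stages in both treatments, and cells without a count sit on the zero line for every gene.

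Between the stages, the calls were all in the lower direction. From 8-cell to 32-cell control, 3 of the 8 genes at the required level were at least 2-fold lower (Tead4, Lats1 and Nf2) and 0 were higher; over all genes 19.5% were lower and 28.8% higher. From 8-cell to 32-cell mimic, 5 of 8 were lower (Tead4, Yap1, Lats2, Amotl2 and Nf2) and 0 were higher, with 18.1% and 28.5% over all genes. The median change of the 8 genes was -0.71 between the controls and -1.16 between the mimic groups, beside 0.19 and 0.21 over all genes tested. These comparisons share groups with those of the treatment. Yap1 stood at the edge of the call between the mimic groups (change -1.01), and with each of their 63 cells left out in turn it was called in 38. Tead1, with a change of -0.91 there, was called lower in 6 of 11 alternatives, while between the controls its change was 0.48.

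Between treatments few of the genes were called. At the 8-cell stage 1 of 8 was at least 2-fold higher in mimic cells (Lats2) and 0 were lower, where 7.29% of all genes tested were higher and 6.57% lower. At the 32-cell stage 1 of 8 was lower in mimic cells (Tead1) and 0 were higher, where 5.39% of all genes were lower and 7.33% higher. These counts lie close to the background. The median change of the 8 genes was -0.14 at the 8-cell and -0.25 at the 32-cell stage, beside 0.02 at either stage over all genes. Tead2 and Tead3 were below a mean of 10 CPM in all 4 comparisons of treatment and stage.

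**Figure D2:**
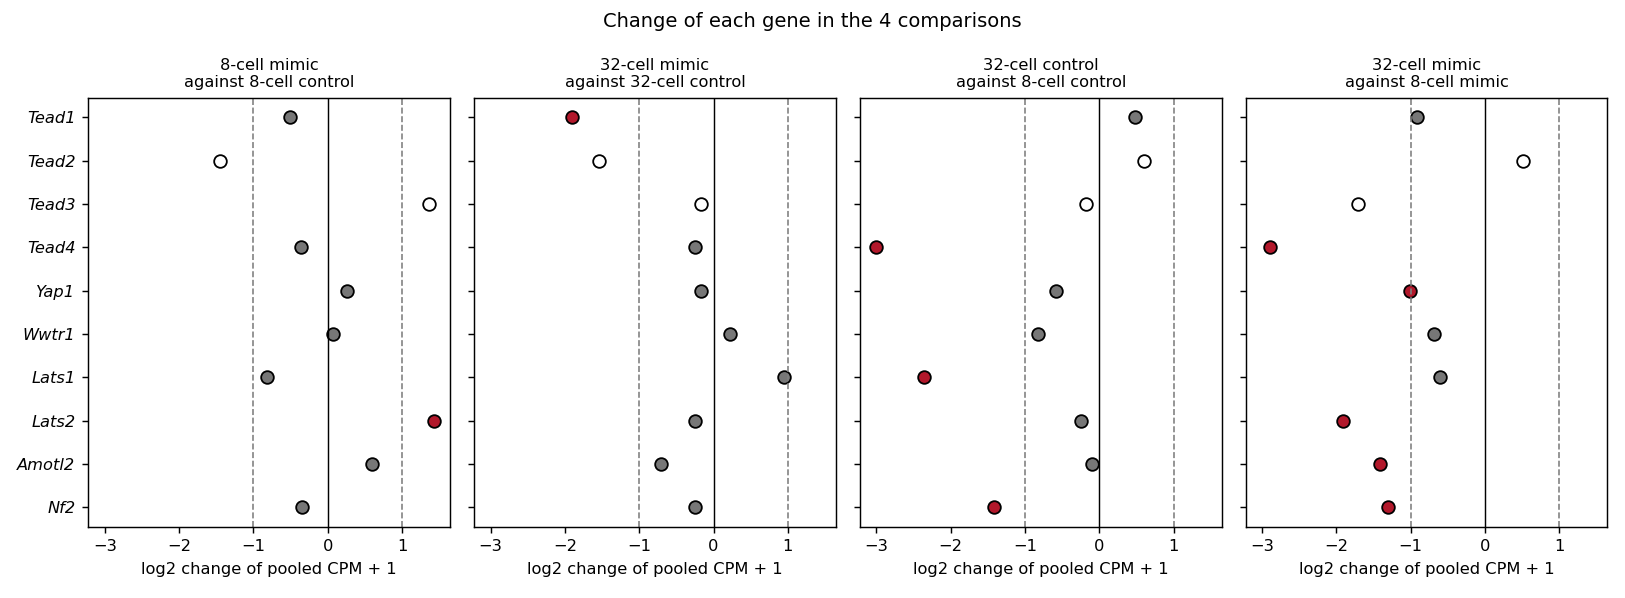
Change of each gene, in log2(pooled CPM + 1), for the 4 comparisons named above each panel; dashed lines mark 2-fold, red points are called different, grey points are not, and open points are below a mean of 10 CPM. Red points are Lats2 and Tead1 in 1 treatment panel each, and 3 and 5 genes on the lower side in the stage panels.

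Tead4 (chr6:128224288-128300823, minus strand) encodes the TEAD factor that TE formation requires, and among the genes at the required level it had the largest stage difference in both treatments. It was detected in all 54 cells of the 8-cell stage, with cells from 171.7 to 1286 CPM (median 645.8) in the control and from 62.0 to 814.1 CPM (median 482.6) in the mimic. In 32-cell embryos the control cells ran from 0 to 278.6 CPM (median 58.9) and the mimic cells from 0 to 166.8 CPM (median 60.3). The ranges of the stages overlapped at their ends, while their interquartile ranges did not. Pooled, Tead4 went from 644.4 CPM (636.2 to 652.7) to 79.6 CPM (77.3 to 81.9) in control cells, 8.10-fold lower, and from 502.5 CPM (494.6 to 510.5) to 66.7 CPM (64.5 to 68.9) in mimic cells, 7.53-fold lower. The change was called in each of the 12 and 11 alternatives run for these comparisons. Between treatments the change was -0.36 at the 8-cell and -0.25 at the 32-cell stage, and the runs of 32-cell cells overlapped, at 68.2 and 96.5 CPM in the control and 58.8 to 72.3 CPM in the mimic.

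Tead1 (chr7:112679318-112906807, plus strand) encodes a TEAD factor found in many tissues and was the gene of the set with the largest difference between treatments at the 32-cell stage. Control cells at the 32-cell stage ran from 0 to 214.8 CPM (median 38.5), and 31 of 39 had a count. Mimic cells ran from 0 to 72.2 CPM (median 1.39), and 22 of 39 had a count. With every cell thinned to 500000 counts, 79.5% of control and 43.6% of mimic cells kept a count. The cells of the groups overlapped widely, but the upper quartile of the control, 74.5 CPM, lay above the highest mimic cell. Pooled Tead1 was 3.95-fold lower in the mimic, at 13.1 CPM (12.1 to 14.1) against 51.7 CPM (49.9 to 53.6), a change of -1.90.

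Runs of Tead1 did not overlap between treatments: it was at 44.4 and 62.6 CPM in the control runs and at 14.4, 5.36 and 19.8 CPM in the mimic runs. Over all genes tested, 15.4% were lower in every mimic run than in every control run and 16% were higher. Amotl2 was the only other gene at the required level with this pattern, at 59.5 and 86.8 CPM against 38.4 to 52.0 CPM, and Tead2, below that level, was at 9.01 and 9.96 CPM against 0.883 to 4.10 CPM. Under the same fold and level rule Tead1 was called lower in all 17 alternatives, with changes from -2.23 to -1.50; with a required mean of 50 CPM it was too low to be called. Some of these left out a run, kept only TE-like or ICM-like cells, or changed the scaling. At the 8-cell stage the difference was not called: control cells ran from 0 to 208.9 CPM (median 13.9) and mimic cells from 0 to 198.6 CPM (median 6.49), and pooled values were 36.8 CPM (34.9 to 38.8) and 25.5 CPM (23.8 to 27.4). Among 8-cell cells with more Xist than Y-linked counts, 23 control cells gave 34.9 CPM of Tead1 and 14 mimic cells 32.5 CPM. Among those with more Y-linked than Xist counts, 7 control cells gave 41.4 CPM and 8 mimic cells 18 CPM, past the 2-fold call. Among those with Xist and no Y-linked count the order was the other way, 16 control cells giving 35.3 CPM and 3 mimic cells 65.3 CPM, with 95.5% of the mimic counts in 1 cell.

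**Figure D3:**
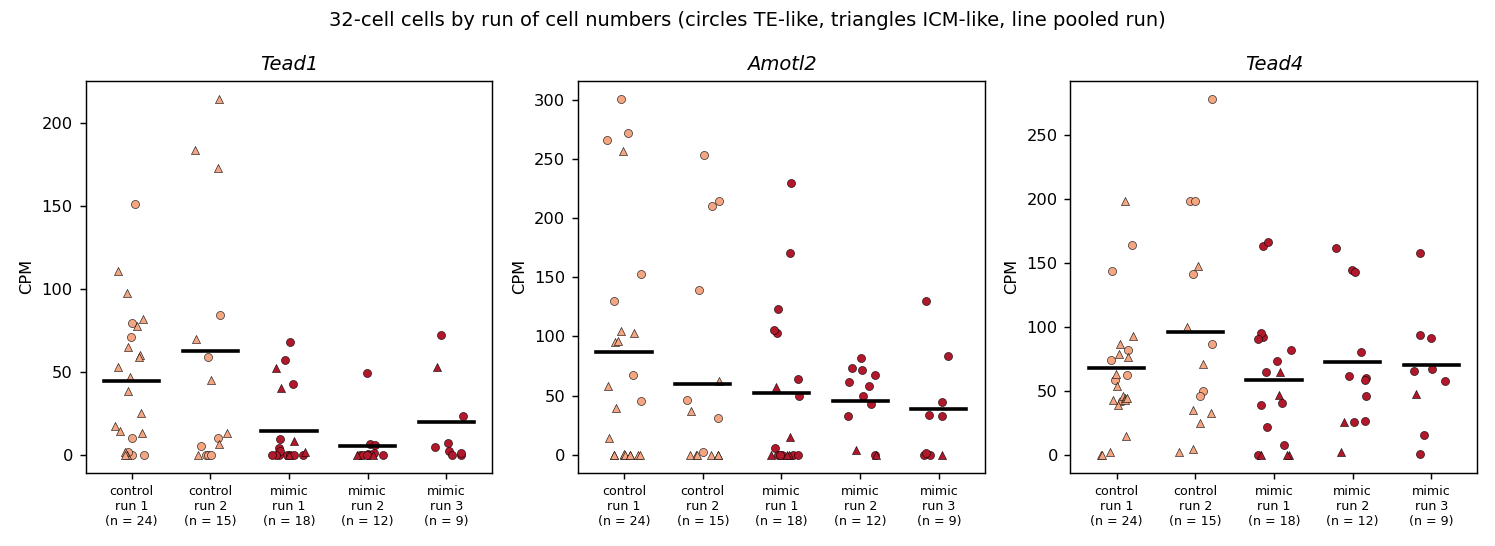
CPM of Tead1, Amotl2 and Tead4 in 32-cell cells, by the run of cell numbers they belong to (number of cells below each run); circles are TE-like cells, triangles ICM-like cells and black lines the pooled CPM of the run. For Tead1 the lines of the control runs lie at 44.4 and 62.6 CPM and those of the mimic runs at or below 19.8 CPM, while for Tead4 they overlap.

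Tead2 (chr7:45215753-45233644, plus strand), known as the TEAD gene of the earliest embryonic stages, was low throughout. Its pooled level was 5.96 CPM in 8-cell control, 1.55 CPM in 8-cell mimic, 9.58 CPM in 32-cell control and 2.63 CPM in 32-cell mimic cells. It had a count in 9 of 30, 3 of 24, 23 of 39 and 10 of 39 cells, and at both stages the mimic group was the lower. A single cell held 72.9% of the Tead2 counts of the 8-cell mimic. Tead3 (chr17:28331671-28350817, minus strand), a TEAD gene best known from placental trophoblast, had 10 counts in 2 of 30 8-cell control cells, 70 counts in 4 of 24 8-cell mimic cells and 7 counts in 2 of 39 32-cell control cells. None of the 39 32-cell mimic cells had a Tead3 count; by the 3-count limit this allows a share of cells with a count of up to 7.69%, which is not a share of cells expressing the gene, and a pooled level of up to 0.0563 CPM.

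As a family, the 4 TEAD genes summed to 183.1 CPM per kb of exon in 8-cell control and 142.2 in the 8-cell mimic. Those of the later stage were 27.9 CPM per kb in the control and 20.1 in the mimic. Tead4 made up 97.8% and 98.2% of the 8-cell sums. In the 32-cell control its share was 79.1%, with 13.6% from Tead1 and 7.16% from Tead2, and in the 32-cell mimic it was 92.4%, with 4.81% from Tead1 and 2.74% from Tead2. Cell by cell, Tead1 per kb exceeded Tead4 per kb in 0 of 54 8-cell cells, 4 of 39 32-cell control and 3 of 39 32-cell mimic cells. In each 32-cell group, 1 of 39 cells had no TEAD count at all.

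**Figure D4:**
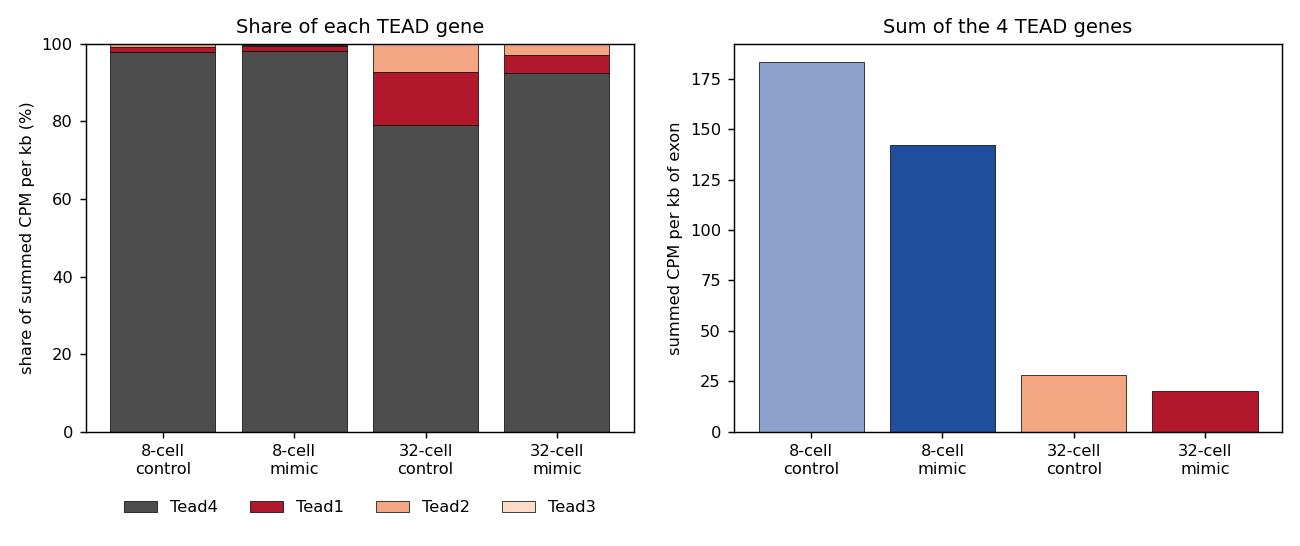
Left, share of the summed CPM per kb of exon that each TEAD gene takes in the 4 groups, in percent; right, the sum itself. Tead4 fills nearly the whole bar at the 8-cell stage, and the 32-cell control has the largest share of Tead1 (13.6%) and Tead2 (7.16%).

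The co-activators varied less between groups than the TEAD genes. Yap1 (chr9:7931999-8004596, minus strand) had a count in 28 of 30 and 24 of 24 8-cell cells and in 37 of 39 and 34 of 39 32-cell cells, control before mimic. Its medians were 139.7 and 139.5 CPM at the 8-cell stage, and its cells ran from 0 to 607.8 CPM in the control and from 29 to 604.3 CPM in the mimic. At the 32-cell stage the medians were 69.2 and 83.1 CPM, with highest cells of 364.9 and 366.4 CPM. Treatment groups overlapped fully at both stages, and pooled changes were 0.25 at the 8-cell and -0.17 at the 32-cell stage. Between stages pooled Yap1 went from 155.1 to 102.9 CPM in control cells and from 185.1 to 91.7 CPM in mimic cells, 1.51-fold and 2.02-fold lower. An exon of Gm20416 on the opposite strand overlaps a short stretch of the exons of Yap1, and Gm20416 itself had 8 counts.

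Wwtr1 (chr3:57455649-57575910, minus strand) was present in all 30 8-cell control cells, at 4.87 to 360.2 CPM (median 96.5), and in 22 of 24 mimic cells, at 0 to 314.2 CPM. Pooled levels were 106.1 CPM (102.8 to 109.5) and 111.4 CPM (107.7 to 115.2), a change of 0.07. In 32-cell cells the medians were 33.9 CPM in the control, with a range of 0 to 441.7 CPM, and 50.6 CPM in the mimic, with a range of 0 to 303.1 CPM, and the pooled change was 0.22. Per kb, Yap1 made up 43.0% and 46.2% of the pair at the 8-cell stage and 47.2% and 40.7% at the 32-cell stage, control before mimic. With the longest transcript as length these shares became 56.5%, 59.6%, 60.7% and 54.1%, so which of the pair was the more abundant depended on the length used.

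Lats2 (chr14:57689662-57758388, minus strand) was the only gene of the set called between treatments at the 8-cell stage. Its 8-cell control cells ran from 0 to 181.8 CPM (median 27.8), with a count in 20 of 30, and its 8-cell mimic cells from 0 to 342.4 CPM (median 81.3), with a count in 20 of 24. The ranges overlapped, and the highest cell of the control lay just below the upper quartile of the mimic, 184.0 CPM. Pooled Lats2 was 2.72-fold higher in the mimic, at 119.0 CPM (115.2 to 122.9) against 43.7 CPM (41.6 to 45.9), a change of 1.43. The mimic was also more than 2-fold higher among cells with more Xist than Y-linked counts (118.6 against 47.0 CPM, 14 and 23 cells) and among cells with more Y-linked counts (82.2 against 35.9 CPM, 8 and 7 cells). Among cells with Xist and no Y-linked count, of which there were 3 in the mimic and 16 in the control, the mimic was lower, at 27.1 against 43.7 CPM (change -0.67), with counts in 1 of the 3 mimic cells.

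Later, in 32-cell embryos, Lats2 was not called by treatment, with 36.8 CPM (35.2 to 38.4) for the control and 30.8 CPM (29.3 to 32.3) for the mimic. A count was present in 20 of 39 control and 11 of 39 mimic cells, so fewer mimic cells held a similar pooled level. On the mean over cells of log2(CPM + 1), which weighs such cells more, Lats2 was called lower in the mimic. The exons of Lats2 share 2955 of 6971 bases with Gm49361 on the same strand, a gene for which no row was found, so reads of either cannot be told apart.

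Lats1 (chr10:7681214-7716460, plus strand) was detected in few cells. A count was present in 14 of 30 8-cell control, 5 of 24 8-cell mimic, 9 of 39 32-cell control and 11 of 39 32-cell mimic cells, so the median cell was at 0 in every group. The highest cells were at 216.9, 355.1, 79.98 and 105.9 CPM. In the 8-cell mimic, 1 cell held 90.8% of the 760 Lats1 counts, and without it the 8-cell change between treatments went from -0.82 to -3.72. Pooled Lats1 went from 44.0 CPM (41.9 to 46.2) in 8-cell control to 7.73 CPM (7.03 to 8.49) in 32-cell control cells, 5.69-fold lower, and that call was kept in 11 of 12 alternatives; it was lost where the first run of 8-cell control cells was left out, which left 2 cells. Between treatments the change was -0.82 at the 8-cell and 0.95 at the 32-cell stage, and neither was called. A single cell held 43.0% of the 32-cell control counts, and without it the control was at 4.6 CPM and the 32-cell change was 1.59, past 2-fold. Over the alternatives the 32-cell change ran from -0.22 to 2.21 and was called higher in 5 of 17, and the 8-cell change ran from -5.21 to 0.86, so no direction is given for Lats1 at either stage. With each cell given equal weight, 8-cell Lats1 was called lower in the mimic.

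Amotl2 (chr9:102716672-102733418, plus strand) encodes an angiomotin that holds YAP in the cytoplasm and is itself a YAP target. In 8-cell cells it ran from 0 to 314.7 CPM in the control (median 73.2) and from 0 to 561.1 CPM in the mimic (median 56.5), with a count in 23 of 30 and 18 of 24 cells. The mimic median was the lower and its pooled level the higher, at 123.5 CPM (119.7 to 127.5) against 81.2 CPM (78.3 to 84.2). Among the cells with Xist and no Y-linked count the mimic was the lower, at 31.3 CPM (3 cells) against 71.8 CPM (16 cells), past the 2-fold call, and among those with more Y-linked counts the change was -0.29. In 32-cell cells it ran from 0 to 300.7 CPM in the control (median 39.4) and from 0 to 229.6 CPM in the mimic (median 33.5). Pooled 32-cell values were 75.8 CPM (73.6 to 78.1) and 45.9 CPM (44.1 to 47.7), 1.65-fold lower in the mimic and short of the call, with all 3 mimic runs below both control runs.

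Nf2 (chr11:4765845-4849536, minus strand), whose product Merlin activates LATS at the membrane, was found in 30 of 30 and 22 of 24 8-cell cells. Control cells ran from 3.78 to 297.5 CPM (median 113.2) and mimic cells from 0 to 335.9 CPM (median 108.7). Its 32-cell medians were 40.3 and 32.6 CPM, with counts in 31 of 39 control and 34 of 39 mimic cells. Pooled Nf2 went from 134.3 to 49.8 CPM in control and from 104.9 to 41.6 CPM in mimic cells, 2.70-fold and 2.52-fold lower. Between treatments its changes were -0.35 and -0.25, and the 32-cell runs overlapped, at 42.7 and 54.6 CPM in the control and 20.7 to 53.3 CPM in the mimic. Among 8-cell cells with more Y-linked than Xist counts, 7 control cells gave 132.1 CPM of Nf2 and 8 mimic cells 60.5 CPM, past the 2-fold call. Among those with more Xist counts, 23 control cells gave 135.2 CPM and 14 mimic cells 127.9 CPM.

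Of the 4 genes with a seed site, Tead1 at the 32-cell stage was the only call between treatments. From control to mimic at the 8-cell and then the 32-cell stage the changes were -0.51 and -1.90 for Tead1, 0.07 and 0.22 for Wwtr1, 0.60 and -0.71 for Amotl2, and -0.82 and 0.95 for Lats1. Over all genes tested at the 32-cell stage, the median change was -0.02 for the 311 genes with an 8mer, -0.03 for the 2138 with any site and 0.03 for the 5970 without. At the 8-cell stage these medians were 0.07, 0.02 and 0.03.

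To see how the genes lay between lineages, all cells were clustered after removing the genes of the Hippo lists and those of the sex chromosomes. The 32-cell cells formed a class of 45 cells in which all 8 TE markers were higher (Krt8, Krt18, Eomes and others) and a class of 33 cells in which all 9 ICM markers were higher (Nanog, Fgf4, Pdgfra and others). They are called TE-like and ICM-like, and both names rest on rebuilt clusters. No TE marker was among the 10 leading genes of TE-like cells, while 2 ICM markers (Tdgf1 and Fgf4) and the Y-linked gene Uty were among those of ICM-like cells. The control had 14 TE-like and 25 ICM-like cells and the mimic 31 and 8, so pooled groups differ in their mix of classes. By a marker score in place of the clusters, 10 mimic cells moved from TE-like to ICM-like and no control cell moved.

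Amotl2 was higher in TE-like than in ICM-like cells in both treatments, at 136.2 against 30.7 CPM in the control (4.44-fold) and 55.1 against 7.39 CPM in the mimic (7.45-fold). In the 8 ICM-like mimic cells 1 cell held 63.2% of the Amotl2 counts, and without it the level was 2.96 CPM and the fold 18.6. All 14 TE-like control cells had an Amotl2 count, as did 11 of 25 ICM-like ones. Tead4 was 2.17-fold higher in TE-like cells of the control, where the ICM-like level was 53.1 CPM, and 3.44-fold higher in the mimic, at 77.3 against 22.5 CPM. Without the highest TE-like control cell the Tead4 change stood just under the call. Lats2 was at 62.9 against 17.2 CPM in the control (3.65-fold), and at 11.2 CPM in ICM-like cells (5.62-fold) without the highest of them. In the mimic it was at 38.2 CPM in TE-like cells, from counts in 11 of 31 cells, and had no count in the 8 ICM-like cells, which allows up to 0.292 CPM there by counting error. With the marker score, the mimic kept the call of Amotl2, lost those of Tead4 and Lats2, and gained Lats1, lower in TE-like cells (change -1.10).

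In the other direction, Wwtr1 was lower in TE-like cells of the control, at 28.8 against 82.1 CPM (2.85-fold), and at 65.6 against 83.4 CPM in the mimic, where 1 cell held 38.3% of the ICM-like counts and without it the ICM-like level was 57.5 CPM, the lower of the pair. Tead1 was at 38.4 CPM in TE-like and 61.7 CPM in ICM-like control cells, and at 11.2 and 21.2 CPM in mimic cells, below 2-fold in both. Without the highest TE-like cell the Tead1 difference was 2.21-fold in the control and 2.47-fold in the mimic, and without the highest ICM-like cell it was 1.33-fold and 1.13-fold. Yap1 and Nf2 also stayed below 2-fold. In the control, 4 of the 8 genes at the required level were called higher in TE-like cells (Tead2, Tead4, Lats2 and Amotl2) and 1 lower (Wwtr1), where 10.1% of all genes were higher and 12.1% lower. Tead2, at 16.3 against 4.55 CPM (3.59-fold), was 2.07-fold higher without its highest TE-like cell and 5.83-fold higher without its highest ICM-like cell, in both cases below a mean of 10 CPM. In the mimic 3 of 8 were higher and 0 lower, where 11.8% and 10.1% of all genes were. The genes known to answer to TEAD4 and YAP, which were left out of the clustering, followed the class names: Cdx2 was at 284.7 against 46.4 CPM and Gata3 at 2884 against 528.4 CPM in control cells, while Sox2 was at 4.4 against 32.6 CPM. A single cell held 55.1% of the TE-like control counts of Sox2, and without it the level was 2.13 CPM and the fold 15.3.

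**Figure D5:**
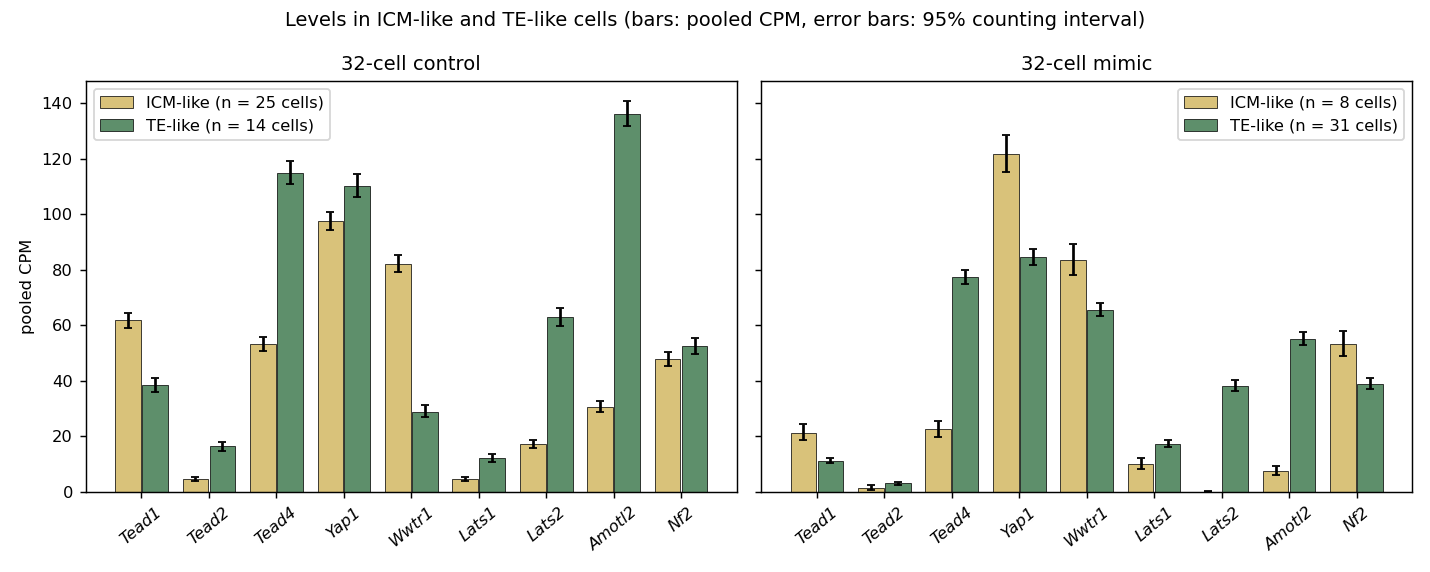
Pooled CPM of 9 genes in ICM-like and TE-like cells of the 32-cell control (25 and 14 cells) and mimic (8 and 31 cells), with 95% Poisson intervals of the counts as error bars; Tead3, at or near 0, is left out. Amotl2, Lats2 and Tead4 are higher in TE-like cells in both panels, and Wwtr1 is lower there in the control, at 28.8 against 82.1 CPM.

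Within a class, Tead1 was lower in mimic than in control cells, 3.44-fold in TE-like cells (38.4 to 11.2 CPM, 14 and 31 cells) and 2.91-fold in ICM-like cells (61.7 to 21.2 CPM, 25 and 8 cells). A single cell held 53.2% of the ICM-like mimic counts of Tead1, and without it the level was 12.6 CPM and the fold 4.89. Amotl2 was 2.47-fold lower in TE-like cells and 4.15-fold lower in ICM-like cells, or 10.3-fold without the ICM-like mimic cell that held most of its counts. With the marker score, Amotl2 kept the call in TE-like cells and lost it in ICM-like cells, and Tead1 kept both. That TE-like call of Amotl2 stood near the edge (change -1.03) and was lost in 12 of 35 leave-outs of a cell. Tead4 was called lower in ICM-like mimic cells only (53.1 to 22.5 CPM) and Wwtr1 higher in TE-like mimic cells only (28.8 to 65.6 CPM); neither call was made with the marker score, and each was lost with 1 of the cells left out. Whether any of these differs between the classes was not tested. Over all genes, 12% were higher and 7.76% lower in the mimic within TE-like cells, and 11.9% were higher and 11.9% lower within ICM-like cells.

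Beyond the 10 genes, the wider pathway was described by lists. Of 25 Hippo kinases and upstream regulators, which include 4 of the 10 genes, 18 were at the required level at the 8-cell stage, where 4 were higher and 2 lower in mimic cells, beside 7.29% and 6.57% of all genes. Rassf1, an adaptor of the MST kinases, was at 11.3 CPM in mimic and 64.1 CPM in control cells. Stk3, which encodes the kinase MST2, was at 31.8 against 5.55 CPM, but 1 cell held 59.9% of its mimic counts. Without that cell Stk3 was at 13.5 CPM with a change of 1.15, and the mean was below the level for a call. Without the highest control cell the Stk3 change was 3.06. Limd1, a LIM protein that binds LATS, was at 24.6 against 9.12 CPM, and at 18.2 CPM and no longer called without the highest mimic cell. Without the highest control cell the control was at 5.65 CPM and the Limd1 change was 1.94. The median change of the 18 genes was 0.06, beside 0.02 over all genes. Of 18 such genes in 32-cell embryos 1 was lower in the mimic and 0 were higher, beside 5.39% and 7.33% of all genes: Amot, an X-linked angiomotin that activates LATS in inner cells, at 19.3 CPM in mimic and 54.4 CPM in control cells.

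Across the stages in control cells, 4 of 19 genes of this list were higher and 5 lower, beside 28.8% and 19.5% of all genes. Stk3 went from 5.55 CPM, or 2.95 CPM without its highest 8-cell control cell, to 69.9 CPM and Fat1, an atypical cadherin, from 19.5 to 167.9 CPM. In mimic cells 4 of 19 were higher and 6 lower, beside 28.5% and 18.1% of all genes, among them Ajuba, another LIM protein that restrains LATS, from 44.7 to 6.25 CPM. Of the 4 Vgll genes, which encode other TEAD partners, Vgll3 had no count in the 54 8-cell cells and was at 38 CPM in 32-cell control and 20.0 CPM in 32-cell mimic cells. A single cell held 40.5% of the Vgll3 counts of the 32-cell control, which was at 24 CPM without it, and without the highest cell of the 32-cell mimic Vgll3 was at 16.6 CPM and below the level for a call. Of the 10 TEAD and partner genes, 5 were at the required level at the 8-cell stage, where 1 was higher in mimic cells and 0 were lower, beside 7.29% and 6.57% of all genes. That gene, named after its values were seen, was Vgll4, at 64.1 CPM in mimic and 25.7 CPM in control cells. Vgll2 had no count in any group.

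A list of 22 YAP and TEAD target genes drawn from other cell types, Amotl2 and Lats2 among them, was mostly low in these embryos, and 5 of 22 were at the required level in each comparison. At the 8-cell stage 1 was higher in mimic cells (Lats2) and 2 were lower, beside 7.29% and 6.57% of all genes. At the 32-cell stage 1 was higher and 1 lower, beside 7.33% and 5.39% of all genes. Ccn1, a matricellular protein gene, was at 23.6 CPM in mimic and 104.2 CPM in control cells of 8-cell embryos. Dock5, a guanine nucleotide exchange factor gene, was at 9.51 CPM, or 6.02 CPM without its highest mimic cell, against 39.4 CPM at the 8-cell stage and at 13.8 against 44.6 CPM at the 32-cell stage. Ccn2 went the other way at the 32-cell stage, at 52.7 CPM in mimic and 16.4 CPM in control cells. The 3 embryo targets differed by stage. Gata3 went from 76.7 to 1536 CPM, Cdx2 from 10.2 to 148.3 CPM and Sox2 from 0 to 20.5 CPM in control cells, while Tead4 went down. In mimic cells they went from 110.7 to 1350 CPM, from 12.8 to 87.7 CPM and from 0.226 to 20.9 CPM. Without its highest 32-cell cell Sox2 was at 17.7 CPM in the control and 15.6 CPM in the mimic, each below the level for a call, while a single 8-cell cell held 59.0% of the Cdx2 counts of the control and 45.3% of those of the mimic. Between pooled treatment groups none of the 3 was called at either stage, and Sox2 was below the level for a call at the 8-cell stage. Within the classes Cdx2 was lower in the mimic, at 103.3 against 284.7 CPM in TE-like cells (2.75-fold) and at 22.3 against 46.4 CPM in ICM-like cells (2.08-fold). The TE-like call was kept with the marker score and with each cell left out, and the ICM-like call was lost with the marker score and in 14 of 33 leave-outs of a cell.

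Genes with patterns most like each member were sought over the 78 32-cell cells, which share the differences in treatment, class and depth, among genes at a mean of 10 CPM or more. For Tead4 the highest Pearson correlations of log2(CPM + 1) were with Pcyt2 (0.60), Folr1 (0.48) and Mpzl2 (0.47). For Amotl2 they were with Cldn4 (0.59), Crip2 (0.57) and Timd2 (0.55), and for Tead1 with Sfmbt2 (0.49), BC028528 (0.45) and Psma5 (0.43). Yap1 was nearest to Frrs1 (0.40), Fank1 (0.39) and Mtmr7 (0.39). Wwtr1 was nearest to Psmb7, Ncaph and Arih2, with values of 0.47, 0.47 and 0.46, and Nf2 to Taf6l, Snrnp35 and Cmtm6, with 0.48, 0.48 and 0.47. Tead2, Tead3, Lats1 and Lats2 had a count in less than 50% of these cells and were not ranked. Between members the highest value over the 78 cells was 0.33, for Tead4 with Amotl2.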

How the data were processed

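Expected counts per gene, given as whole numbers, were deposited by the authors for every cell; the submitters' processing notes name FastQC, STAR 2.5.1b, RSEM 1.3.0 and GRCm38 (mm10). RSEM shares reads that fit several genes between them, and PCR copies are counted as reads. The study's filter (at least 3000 genes, under 10% mitochondrial counts) removed 0 cells here, and no 2 cells held identical values. CPM was computed without the 13 mitochondrial genes with pandas 2.3.3 and numpy 2.4.6, and intervals with scipy 1.17.1. Clusters were made with Seurat 5.3.0 (2000 variable genes, 25 components, resolution 0.6). TMM factors came from edgeR 4.0.16. Coordinates, lengths and 3′ UTRs are from GENCODE M21, whose release may differ from the annotation used for counting. The 2-fold rule was run on simulated counts with known changes and counting error only. These had no variation between cells or embryos, so the run cannot show how often the rule errs in the real cells. All 10 members were named; of the lists, up to 6 genes per comparison with the largest change past 2-fold were named, and of genes like a member 3 each. Members and lists were chosen with earlier results of these data known. Doublets were not called, cells having been isolated singly before library preparation. The oocyte and cumulus lists served to check cells, and the TE and ICM lists also named the classes and gave the marker score. Vgll4 and Vgll2 fell outside that rule and were chosen after their values were seen.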

Additional observations from a re-analysis of the deposited data

How the results depend on the processing

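No paired analysis was possible because cell numbers pair no cells across groups and no test was run. Of 610 member changes under alternatives, 325 stayed within the counting interval of the reported change, 284 left it and 1 called change reversed: Lats2 in 8-cell cells with Xist only, at -0.67. The number of members called by treatment at the 8-cell stage, 1 as reported, was 2 with a mean over cells of log2(CPM + 1) or of CPM, with cells thinned to 500000 counts or in cells with Xist only, 3 without a level filter or at 1.5-fold, and 4 in cells with more Y-linked counts. Left-out runs gave 1 to 3 and left-out cells 1 to 2. At the 32-cell stage, 1 as reported, it was 2 with the mean over cells of log2(CPM + 1), thinned cells, a pseudocount of 0.1, no level filter or ICM-like cells by marker score. It was 3 at 1.5-fold, in TE-like cells by either method or in ICM-like clusters, and 0 at a mean of 50 CPM, since Tead1 lay below it; left-out runs and left-out cells each gave 1 to 2. Between stages the control count of 3 became 5 at 1.5-fold, with 3 to 5 over left-out runs, and the mimic count of 5 became 8, with 4 to 6. The causes of the other shifts were not tested. TMM scaling shifted the median of all genes by -0.11 between treatments at the 32-cell stage and by -0.12 between mimic stages; median-of-ratios scaling shifted it by -0.12 between control stages and -0.19 between mimic stages. No member changed sign under either scaling. The missing embryo labels limit every comparison, and the Xist and Y-linked split those between treatments at the 32-cell stage. The splits by class, by single left-out cell (members, also by class, and named list genes) and by Xist above Y-linked counts were chosen after seeing the data.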
